A study of Mus musculus with 20 samples.

Results

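The genes described here are 40 genes of the heat shock response and of the unfolded protein response. They were chosen by symbol and not by a rule on measured values, but with earlier results of these data known. They comprise 21 cytosolic and mitochondrial chaperones, co-chaperones and heat shock factors, and 19 chaperones, sensors and transcription factors of the endoplasmic reticulum. A probe was found for 38 of the 40, with none assigned here to Hspa1b or Dnajb5, and all 38 were among the 15102 genes tested of 20972 with a probe. Each signal was well above background on all 20 arrays. The samples were brain RNA of 20 male C57BL/6J mice, 5 in each of 4 groups. The 10 Tat- mice carried only the Tet-binding protein under the GFAP promoter, which is active in astrocytes, and the 10 Tat+ mice carried this protein together with a TRE promoter-driven transgene for the HIV-1 protein Tat. Doxycycline, which switches the Tat transgene on, was given at 100 mg/kg for 7 days to all 20 mice, controls included, beside 7 daily injections of 2 mg/kg methamphetamine (Meth) or saline (Sal). The study's methods add a 7-day abstinence and a Meth challenge in every mouse, so that Sal names what was injected before the challenge. The labels describe the left hemisphere of perfused brains of mice aged 6 to 7 weeks, taken 24 h after the last injection, whereas the methods describe the caudate putamen of older mice soon after the challenge. Of 10 striatal marker genes with a probe, 10 were tested, and 2 of these were called lower in the Tat- mice given Meth. Of the cerebellar markers 2 of 6 (Cbln3 and Gabra6) did not reach the limit for testing.

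Heat shock proteins are chaperones that hold, fold or hand on unfolded proteins in the cytosol, the nucleus and the mitochondria, and many of their genes are switched on by the transcription factor Hsf1 when proteins misfold. The unfolded protein response does the same for the endoplasmic reticulum: the membrane sensors Ern1 (IRE1), Eif2ak3 (PERK) and Atf6 react to unfolded protein in its lumen and act through the transcription factors Xbp1, Atf4 and the cleaved Atf6 to raise chaperones, oxidoreductases and degradation factors. Ddit3 (CHOP) and Trib3 are induced late, under prolonged stress. In the brain, Meth is known to raise markers of both responses.

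Levels are given as log2 signal, after each array was divided by its own 75th percentile, and differences as log2 fold change with the standard error (SE) of the limma fit. A gene was called higher or lower at a Benjamini-Hochberg adjusted p under 0.05 over all genes tested, and counted again above 2-fold. The 20 arrays lay on 3 slides. Slide 1 held the 5 Tat-/Meth arrays and no others, slide 2 the 5 Tat-/Sal arrays with replicates 1 to 3 of Tat+/Meth, and slide 3 replicates 4 and 5 of Tat+/Meth with the 5 Tat+/Sal arrays. Meth without Tat and slide 1 therefore cannot be told apart, and this holds for every comparison below that uses the Tat-/Meth arrays. The bright corner control spots gave 14.67 to 15.06 log2 units for slide 1, against 16.79 to 17.44 elsewhere.

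In Tat-/Meth vs. Tat-/Sal, 15 of the 38 genes were higher and 3 were lower, and 20 passed in neither direction. Of all genes tested, 35% were higher and 15.3% lower in this comparison, so the share of chaperone and stress genes called higher, 39.47%, was close to that of the array as a whole, and the share called lower was 7.895%. Above 2-fold lay 1 of the 38, Hspa8, beside 6.85% of all genes. The endoplasmic reticulum genes had 9 of 19 higher and 1 lower, with a median log2 fold change of 0.20, and the heat shock genes had 6 of 19 higher and 2 lower, with a median of 0.15. The median of all genes was 0.14. That median moved with the scaling, to 0.26 when arrays were scaled to their median and to -0.29 without scaling, and the medians of both lists moved with it, turning negative without scaling at -0.22 and -0.28. Each of the 15 genes called higher lay above the median of all genes and each of the 3 called lower lay below it, also after quantile normalization. Scaling to the median and no scaling shift all genes of an array alike. They leave a value relative to that median nearly unchanged by construction, and are no separate check of it. Taken by sign alone, 4 of the 15 (Pdia3, Dnajc3, Dnajb9 and Atf6) were above 0 without scaling and 11 below, and 1 of the 38 genes was called higher and 18 lower. The 35% and 15.3% of all genes belong to the scaled arrays and are no measure for these unscaled counts, made where the median of all genes was -0.29.

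**Figure D1:**
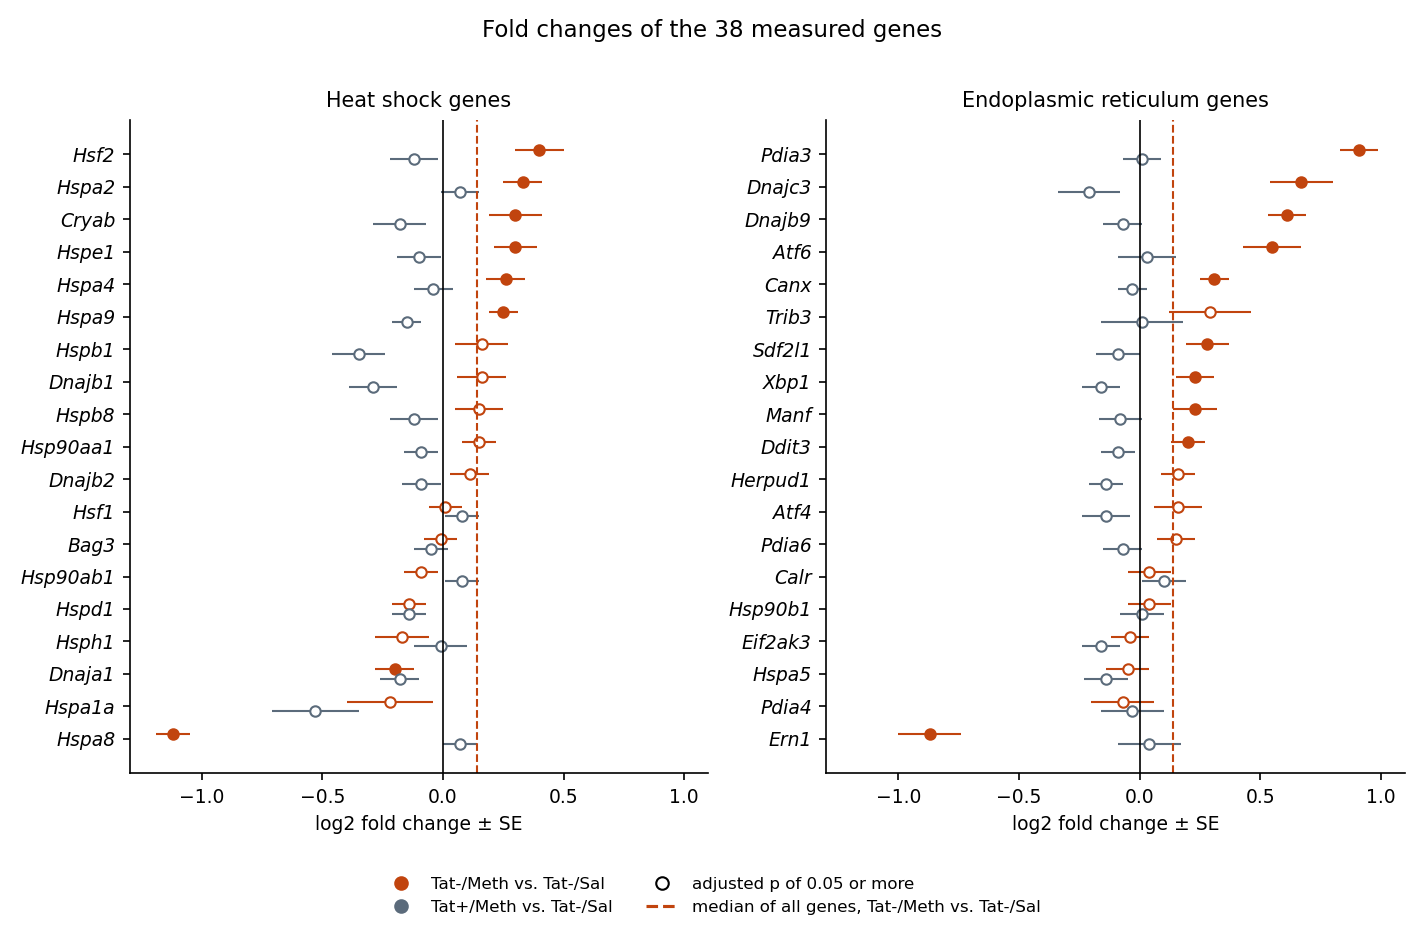
Log2 fold change (x axis, with SE bars) of the 38 measured genes, heat shock genes at left and endoplasmic reticulum genes at right, in Tat-/Meth vs. Tat-/Sal (red) and Tat+/Meth vs. Tat-/Sal (grey), 5 arrays a group. Filled points passed an adjusted p of 0.05 and the dashed line is the median of all genes in Tat-/Meth vs. Tat-/Sal, 0.14. Pdia3 at 0.91 and Hspa8 at -1.12 lie at the ends of the red series, no grey point is filled, and without scaling all red values shift down, by -0.29 in place of 0.14 at the median.

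Of the 15 genes called higher, the 3 with the largest differences encode proteins of the endoplasmic reticulum lumen. Pdia3 (ERp57), the oxidoreductase that works with calnexin and calreticulin on glycoproteins, read 12.69, 12.58, 12.48, 12.67 and 12.29 in Tat-/Meth and 11.57, 11.78, 11.58, 11.78 and 11.47 in Tat-/Sal. The lowest Tat-/Meth array was above the highest array of each of the other groups, which reached 11.90 in Tat+/Sal. Its log2 fold change was 0.91 (SE 0.08, adjusted p = 3.347e-08), at percentile 99.19 of all genes tested. Dnajc3 (p58IPK), a co-chaperone of the lumen and an inhibitor of PERK, read 11.84, 11.93, 11.82, 12.01 and 11.57 in Tat-/Meth and 11.29, 11.22, 11.04, 11.33 and 10.93 in Tat-/Sal. These groups did not overlap, and the log2 fold change was 0.67 (SE 0.13, adjusted p = 0.0003696), which was 0.25 without scaling and did not pass (adjusted p = 0.271 by limma). Dnajb9 (ERdj4), a co-chaperone of BiP that is a known target of Xbp1, read 12.60, 12.55, 12.37, 12.57 and 12.41 in Tat-/Meth against 11.84 to 11.99 in Tat-/Sal, a log2 fold change of 0.61 (SE 0.08, adjusted p = 1.16e-05), which was 0.18 without scaling and did not pass (adjusted p = 0.2626 by limma). A second, dimmer probe of Dnajb9 gave 0.31 (SE 0.18, adjusted p over all probes = 0.1582).

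The central chaperones of the same compartment had values near 0 on the scaled arrays and passed as lower without scaling, with Hspa5 at -0.47, Hsp90b1 at -0.38, Calr at -0.38 and Pdia4 at -0.49. Hspa5 (BiP), the Hsp70 of the lumen and the usual readout of the unfolded protein response, read 15.46, 15.47, 15.45, 15.63 and 15.23 in Tat-/Meth and 15.54, 15.59, 15.16, 15.55 and 15.67 in Tat-/Sal. The groups overlapped, with a log2 fold change of -0.05 (SE 0.09, adjusted p = 0.6677), and 2 SE on either side reached from -0.23 to 0.13. Hsp90b1 (GRP94), its Hsp90 partner, was at 0.04 (-0.13 to 0.21) and Calr, the calcium-binding lectin calreticulin, at 0.04 (-0.13 to 0.22), neither of which passed. Pdia4 (-0.07) and Pdia6 (0.15), oxidoreductases like Pdia3, did not pass either, although the dimmer of 2 Pdia6 probes gave 0.41 (SE 0.09, adjusted p over all probes = 0.0009391). Canx, the membrane lectin calnexin, rose by 0.31 and Sdf2l1 and Manf, small lumenal proteins of the BiP system, by 0.28 and 0.23, while Herpud1, of the degradation machinery, was at 0.16 with an adjusted p of 0.05446. The Manf call (adjusted p = 0.04312 by limma) was kept in 12 of the 20 fits that left out 1 array and was lost after quantile normalization. Without scaling, Canx was at -0.11, Sdf2l1 at -0.14 and Manf at -0.20, and Pdia6 (-0.27) and Herpud1 (-0.26) passed as lower.

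The promoter windows of these chaperones, from RefSeq on GRCm38.p6, were searched for the ER stress response element, CCAAT and CCACG with 9 bases of any kind between them, on both strands. It was found in 6 of the 17 endoplasmic reticulum genes with a window (Calr, Canx, Dnajc3, Hsp90b1, Hspa5 and Pdia6) and in 0.119% of all 32851 windows, which reach from 250 bases before to 50 bases after each start site. The windows of Pdia3, Dnajb9 and Ern1 did not hold these letters. Printed below are the 250 bases before the start of 3 of the 6 genes, each on the gene's strand with the element in capitals: Hspa5 at chr2:34771840-34772089, Calr at chr8:84846932-84847181, where the element lies on the opposite strand, and Dnajc3 at chr14:118937682-118937931. They are shown because the same element stands before genes with different values, 0.67 for Dnajc3, 0.04 for Calr and -0.05 for Hspa5.
Hspa5: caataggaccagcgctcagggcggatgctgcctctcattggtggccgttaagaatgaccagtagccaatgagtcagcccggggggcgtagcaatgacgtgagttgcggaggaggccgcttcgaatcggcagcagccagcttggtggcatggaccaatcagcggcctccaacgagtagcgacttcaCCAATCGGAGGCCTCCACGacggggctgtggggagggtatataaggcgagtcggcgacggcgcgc
Calr: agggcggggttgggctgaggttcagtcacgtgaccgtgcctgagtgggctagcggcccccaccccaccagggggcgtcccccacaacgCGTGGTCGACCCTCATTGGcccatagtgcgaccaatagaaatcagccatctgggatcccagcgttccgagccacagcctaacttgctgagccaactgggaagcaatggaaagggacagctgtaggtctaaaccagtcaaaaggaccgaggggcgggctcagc
Dnajc3: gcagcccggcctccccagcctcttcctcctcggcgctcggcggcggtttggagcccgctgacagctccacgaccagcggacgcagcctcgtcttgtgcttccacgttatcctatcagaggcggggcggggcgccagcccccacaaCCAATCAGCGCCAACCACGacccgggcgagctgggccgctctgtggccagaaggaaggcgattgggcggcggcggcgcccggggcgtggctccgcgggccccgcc

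Among the sensors, Ern1 fell under every scaling tried, and Atf6 rose on the scaled arrays but did not pass without scaling (0.13, adjusted p = 0.4906). Atf6, the sensor that is cleaved into a transcription factor, read 10.70, 10.48, 10.79, 11.04 and 10.46 in Tat-/Meth and 9.99, 10.11, 10.37, 10.16 and 10.10 in Tat-/Sal, with no overlap and a log2 fold change of 0.55 (SE 0.12, adjusted p = 0.0006865). Ern1, the kinase and RNase that splices Xbp1 mRNA, read 6.91, 6.93, 6.76, 7.02 and 7.65 in Tat-/Meth and 7.85, 7.82, 8.05, 7.86 and 8.04 in Tat-/Sal. All Tat-/Meth arrays lay below the lowest of the others, replicate 5 closest to them, and the log2 fold change was -0.87 (SE 0.13, adjusted p = 3.555e-05). Ern1 lies at a low signal, and of the 3041 genes with a mean under 8 log2 units 25.978% were called lower. Eif2ak3, the kinase PERK, was at -0.04 (SE 0.08, adjusted p = 0.68), and at -0.46 without scaling, where it passed as lower (adjusted p = 0.001313).

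The transcription factors downstream moved less. Xbp1 read 15.26, 15.17, 15.04, 15.34 and 15.09 in Tat-/Meth and 15.08, 14.96, 14.78, 14.85 and 15.06 in Tat-/Sal, with overlap in 1 Tat-/Meth array and a log2 fold change of 0.23 (SE 0.08, adjusted p = 0.01886). Ddit3 read 11.05, 11.23, 11.09, 11.17 and 10.99 against 10.87, 10.92, 10.83, 11.02 and 10.90, a log2 fold change of 0.20 (SE 0.07, adjusted p = 0.02894), a call kept in 15 of the 20 fits that left out 1 array. Relative to the median of all genes, Xbp1 stood at 0.09 and Ddit3 at 0.06, and after quantile normalization at 0.16 and 0.03. Without scaling their values were -0.19 and -0.22 and did not pass. Atf4 was at 0.16 (SE 0.10, adjusted p = 0.1989) and its target Trib3 at 0.29 (SE 0.17, adjusted p = 0.1513). The array does not tell the spliced from the unspliced Xbp1 mRNA as far as the files show.

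**Figure D2:**
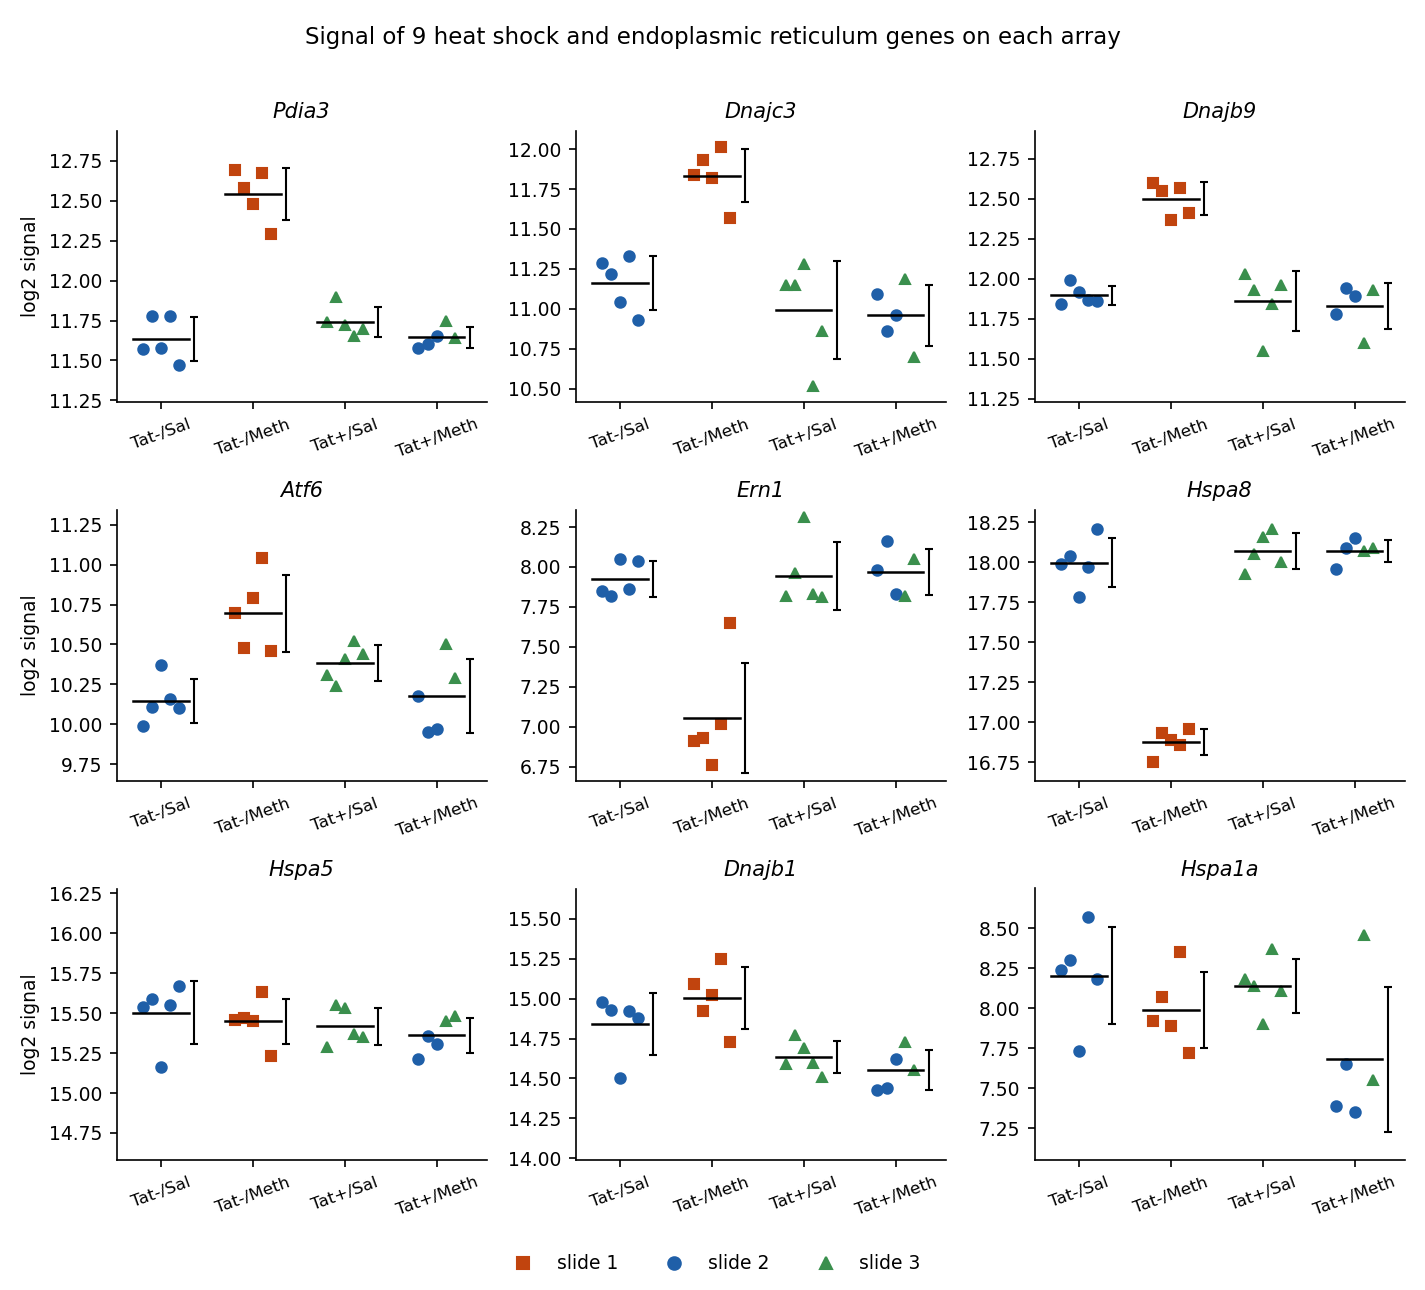
Log2 signal (y axis, the same span in each panel) of 9 genes on each of the 20 arrays, by group (x axis). Symbols mark the slide, the black line the group mean and the bar beside it the SD of 5 arrays. In Pdia3, Dnajc3, Dnajb9 and Atf6 the Tat-/Meth arrays lie above those of Tat-/Sal and in Ern1 and Hspa8 below them, all on slide 1, while in Hspa5, Dnajb1 and Hspa1a the groups overlap.

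In the heat shock part, Hspa8 (Hsc70), the constitutive cytosolic Hsp70 that is abundant in neurons, had the largest difference of the 38 genes. Its brightest probe read 16.75, 16.93, 16.89, 16.86 and 16.96 in Tat-/Meth and 17.99, 18.04, 17.78, 17.97 and 18.21 in Tat-/Sal, a log2 fold change of -1.12 (SE 0.07, adjusted p = 6.274e-10), with no overlap and with Tat+/Meth and Tat+/Sal at 17.93 or above. The other probes of Hspa8 gave smaller values. The second read 16.44 ± 0.08 (SD, n = 5) in Tat-/Meth and 16.73 ± 0.15 in Tat-/Sal, a log2 fold change of -0.29 (SE 0.07, adjusted p over all probes = 0.003099), and the dimmest read 14.76 ± 0.23 and 14.80 ± 0.25, a log2 fold change of -0.04 (SE 0.14, adjusted p over all probes = 0.83). The drop thus became smaller from the brightest to the dimmest probe of 1 gene. Over all genes the comparison leaned the same way with signal: the median log2 fold change was 0.16 for the 3177 genes between 12 and 14 log2 units and -0.21 for the 130 genes above 17, of which 56.154% were called lower. Hspa8 lay below the 10th percentile of those 130 genes, -0.75, while Hsp90ab1, at a mean of 17.19, was at -0.09. In Tat+/Sal vs. Tat-/Sal, which does not involve slide 1, the median of those 130 genes was 0.07. Whether signal or the amount of Hspa8 mRNA sets the difference was not tested.

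**Figure D3:**
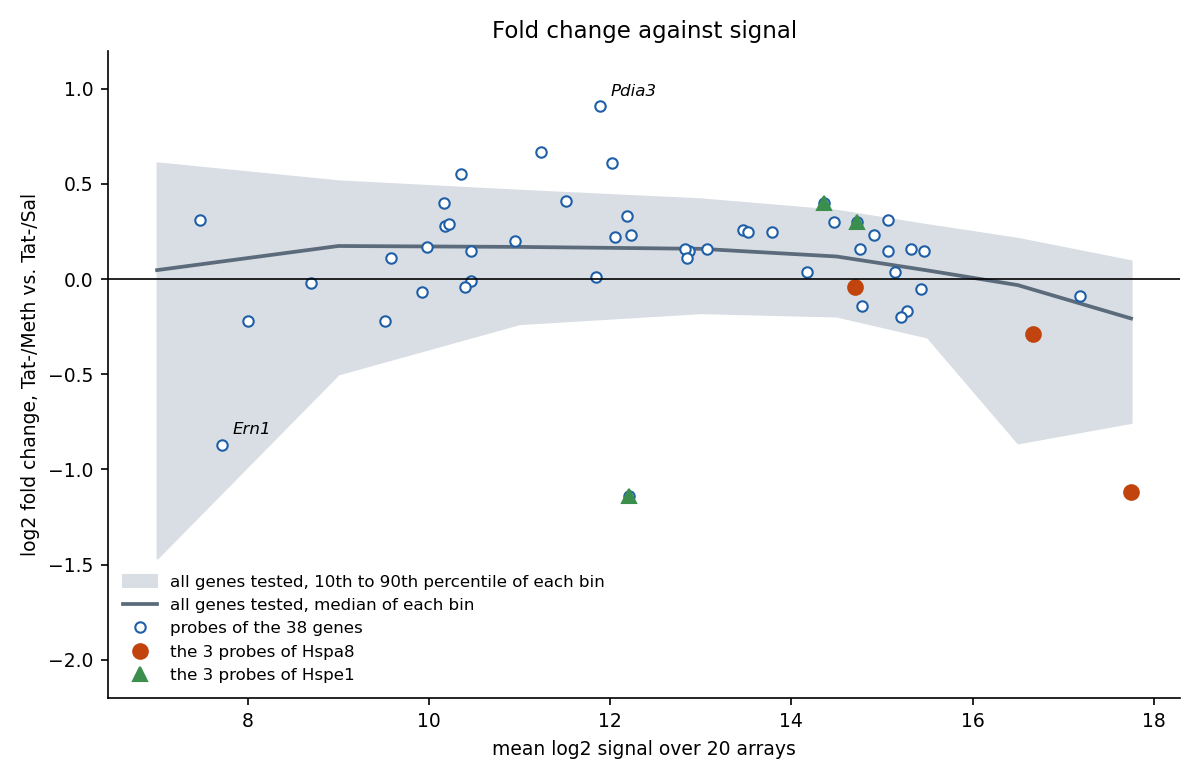
Log2 fold change in Tat-/Meth vs. Tat-/Sal (y axis) against the mean log2 signal over 20 arrays (x axis) for each probe of the 38 genes (open circles), with the 3 probes of Hspa8 in red and the 3 of Hspe1 in green. The line and band give the median and the outer deciles of all genes tested in bins of signal. The line runs from 0.16 at 12 to 14 log2 units to -0.21 above 17, and the Hspa8 probes run from -0.04 at the dimmest to -1.12 at the brightest.

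The stress-inducible Hsp70 gene and its regulators did not pass on the scaled arrays, but Hspa1a (-0.64), Bag3 (-0.43) and Hsf1 (-0.41) passed as lower without scaling. Hspa1a, whose mRNA rises most in a heat shock response and whose near-identical copy Hspa1b may share its probe, read 7.92, 8.07, 7.89, 8.35 and 7.72 in Tat-/Meth and 8.24, 8.30, 7.73, 8.57 and 8.18 in Tat-/Sal. The groups overlapped, with a log2 fold change of -0.22 (SE 0.18, adjusted p = 0.3387) and 2 SE on either side from -0.59 to 0.15. Dnajb1 (Hsp40), the inducible partner of Hsp70, was at 0.16 (SE 0.10, adjusted p = 0.1881), Bag3, the Hsp70 nucleotide exchange factor, at -0.01 (SE 0.07, adjusted p = 0.9421) and Hsf1 at 0.01 (SE 0.07, adjusted p = 0.9164). Hsf2, a heat shock factor known for development more than for heat, read 10.53, 10.67, 10.52, 10.54 and 10.28 in Tat-/Meth against 9.96 to 10.19 in Tat-/Sal, with no overlap and a log2 fold change of 0.40 (SE 0.10, adjusted p = 0.002373), which was -0.02 without scaling. Hspa2, an Hsp70 best known from testis, rose by 0.33 (SE 0.08, adjusted p = 0.003004), with all 5 Tat-/Meth arrays above the highest Tat-/Sal array, and was -0.09 without scaling. The small heat shock protein Cryab rose by 0.30, Hspa4 (an Hsp110-type exchange factor) by 0.26 and Hspa9 (mortalin, the Hsp70 of mitochondria) by 0.25, all below 0 without scaling. The Cryab call was kept in 15 of the 20 fits that left out 1 array. Dnaja1, an Hsp40, fell by 0.20 (SE 0.08, adjusted p = 0.04275), a call lost in 9 of the 20 fits that left out 1 array. Hsp90aa1, Hsp90ab1, Hspb1, Hspb8, Hspd1, Hsph1 and Dnajb2 lay between -0.17 and 0.16 and did not pass on the scaled arrays. Without scaling, Hsph1 (-0.59), Hspd1 (-0.56), Hsp90ab1 (-0.51), Dnajb2 (-0.31) and Hsp90aa1 (-0.28) passed as lower, while Hspb8 (-0.27) and Hspb1 (-0.26) did not.

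Hspe1 and Hspd1 encode Hsp10 and Hsp60, which together form the folding chamber of the mitochondrial matrix, and their genes stand head to head. Heat shock elements, 3 units GAA and TTC in turn with a pair of free bases between units (GAA-NN-TTC-NN-GAA or TTC-NN-GAA-NN-TTC, both strands, matches may overlap), were found in 0.603% of all windows and in those of 3 of the 15 heat shock genes with a window, Hspd1, Hspe1 and Hsph1. The amino acid response element TGATGNAAT was found in 0.965% of all windows and in none of the windows of the 32 genes that have one. The sequence below is the 215 bases between the start sites of Hspd1 (minus strand) and Hspe1 (plus strand), chr1:55087933-55088147 of GRCm38.p6 on the plus strand, with the heat shock elements in capitals. It was chosen after the values were seen, because the pair shares it and its probes differ.
Hspe1: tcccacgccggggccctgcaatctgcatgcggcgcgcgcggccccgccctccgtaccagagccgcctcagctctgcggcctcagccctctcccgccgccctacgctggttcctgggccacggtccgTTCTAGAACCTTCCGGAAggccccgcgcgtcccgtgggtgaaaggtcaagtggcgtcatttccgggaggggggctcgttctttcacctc
The brightest Hspe1 probe read 15.01 ± 0.04 (SD, n = 5) in Tat-/Meth and 14.71 ± 0.14 in Tat-/Sal, a log2 fold change of 0.30 (SE 0.09, adjusted p = 0.007865), which was -0.13 without scaling. Its second probe gave 0.40 and its dimmest -1.14 (SE 0.09, adjusted p over all probes = 6.654e-09), so that probes assigned to 1 gene went opposite ways by more than their errors. Hspd1, with 1 probe, was at -0.14 (SE 0.07, adjusted p = 0.1008). Of the 10 genes with several probes, 3 had probes of opposite sign in this comparison, Hspe1, Hsph1 and Dnajb2.

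Tat+/Meth vs. Tat-/Meth, which asks what Tat adds to Meth and shares the slide 1 arrays, gave 3 genes higher and 23 lower of 38. Of all genes tested, 16% were higher and 38.5% lower, and 7.22% passed above 2-fold, as did Hspa8 of the 38. The lists were lower at the median, -0.29 for the endoplasmic reticulum and -0.25 for heat shock against -0.15 for all genes, and turned to 0.04 and 0.09 without scaling, where the median of all genes was 0.19 and 10 of the 23 genes were above 0. Pdia3 differed by -0.90 (SE 0.08, adjusted p = 3.51e-08), Dnajc3 by -0.87 (SE 0.13, adjusted p = 2.142e-05), Dnajb9 by -0.67 (SE 0.08, adjusted p = 2.977e-06) and Atf6 by -0.52 (SE 0.12, adjusted p = 0.0009912). Without scaling Pdia3 (-0.56) and Dnajc3 (-0.54) passed, while Dnajb9 (-0.33) and Atf6 (-0.18) did not. The brightest probe of Hspa8 was higher by 1.2 (SE 0.07, adjusted p = 2.33e-10), its second by 0.31 (SE 0.07), and its dimmest was at -0.21 (SE 0.14) and did not pass. Ern1 was higher by 0.92 (SE 0.13, adjusted p = 1.781e-05). The Tat+/Meth arrays lay in the range of the saline groups for Pdia3 at 11.58 to 11.75, Ern1 at 7.82 to 8.16 and the brightest Hspa8 probe at 17.96 to 18.15, whereas 2 of the 5 lay below all Tat-/Sal arrays for Atf6.

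Dnajb1, Hspb1 and Atf4, which had not passed in the first comparison, were called lower in Tat+/Meth, but not without scaling. Dnajb1 read 14.43, 14.44, 14.62, 14.73 and 14.55 in Tat+/Meth against 14.73 to 15.25 in Tat-/Meth, a log2 fold change of -0.45 (SE 0.10, adjusted p = 0.00092). Hspb1 (Hsp25), the small heat shock protein of stressed glia and neurons, read 12.34, 12.76, 12.72, 12.55 and 12.69 against 12.99 to 13.25, with no overlap and a log2 fold change of -0.51 (SE 0.11, adjusted p = 0.0005668). Hsf2 differed by -0.52 (SE 0.10, adjusted p = 0.0002044), Xbp1 by -0.39 (SE 0.08, adjusted p = 0.0003915), Ddit3 by -0.29 (SE 0.07, adjusted p = 0.002326) and Atf4 by -0.29 (SE 0.10, adjusted p = 0.01829), and none of these passed without scaling, where Dnajb1 was at -0.11, Hspb1 at -0.17, Hsf2 at -0.19, Xbp1 at -0.06, and Ddit3 and Atf4 at 0.04. Hsp90ab1, the constitutive cytosolic Hsp90, was higher by 0.16 (SE 0.07, adjusted p = 0.04632), a call lost in 14 of 20 fits that left out 1 array and -0.12 after quantile normalization. Hspa1a, at -0.31 (SE 0.18, adjusted p = 0.1666), and Hspa5, at -0.09 (SE 0.09, adjusted p = 0.4263), did not pass.

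The interaction, which asks whether the Meth difference was the same with and without Tat, was called for 12 of the 38 genes, 2 higher and 10 lower, beside 12.4% and 23.6% of all genes, and 7.44% above 2-fold. Hspa8 (1.12, SE 0.10, adjusted p = 1.489e-07) and Ern1 (0.90, SE 0.19, adjusted p = 0.001311) were the 2 higher. Pdia3 (-1.0, SE 0.11, adjusted p = 1.711e-06), Atf6 (-0.76, SE 0.16, adjusted p = 0.001483), Dnajc3 (-0.70, SE 0.18, adjusted p = 0.006246), Dnajb9 (-0.64, SE 0.12, adjusted p = 0.0004136), Cryab (-0.63, SE 0.15, adjusted p = 0.003672) and Sdf2l1 (-0.51, SE 0.13, adjusted p = 0.006054) were the largest of the 10 lower. Of these 6 only Pdia3 passed without scaling (-0.52), with Atf6 at -0.27, Dnajc3 at -0.22, Dnajb9 at -0.16, Cryab at -0.15 and Sdf2l1 at -0.03. Hspa1a (-0.24, SE 0.26, adjusted p = 0.4982), Dnajb1 (-0.24, SE 0.14, adjusted p = 0.1955), Hspa5 (-0.01, SE 0.13, adjusted p = 0.9714), Xbp1 (-0.19, SE 0.11, adjusted p = 0.2014) and Atf4 (-0.09, SE 0.14, adjusted p = 0.646) did not pass, and Ddit3 did at -0.35 (SE 0.10, adjusted p = 0.01328) but was 0.14 without scaling.

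The other 3 comparisons do not use slide 1. Tat+/Sal vs. Tat-/Sal addresses Tat alone, but its groups lay on slide 3 and slide 2 and share no slide, so that they are linked across slides by the Tat+/Meth arrays alone. Here 0 of the 38 genes were called by limma, beside 0.768% of all genes higher and 0.649% lower, and 8 of the 38 had an unadjusted p under 0.05. Slide as a fixed block gave 0, and slide as a random block 4 higher and 3 lower, with no share of all genes set beside these. The 3 largest differences were Hspb1 at -0.32 (SE 0.11, adjusted p = 0.1055), Pdia4 at 0.26 (SE 0.13, adjusted p = 0.2592) and Calr at 0.24 (SE 0.09, adjusted p = 0.1329). Hspb1 read 12.48, 12.75, 12.74, 12.59 and 12.63 in Tat+/Sal and 12.86, 13.26, 12.59, 13.01 and 13.08 in Tat-/Sal, and without replicate 3 of Tat-/Sal, its low array, the value was -0.41 and passed. Eif2ak3 was lower in all 5 Tat+/Sal arrays, 10.11 to 10.43, than in any Tat-/Sal array, 10.43 to 10.56 (the values at 10.43 differ before rounding), with a log2 fold change of -0.22 (SE 0.08, adjusted p = 0.1215). Xbp1 was at -0.21, Dnajb1 at -0.21, Atf4 at -0.20, Hspa5 at -0.08, Hspa1a at -0.07, Hspa8 at 0.07 and Ddit3 at 0.05, none of which passed.

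In Tat+/Meth vs. Tat+/Sal, Meth in mice with Tat, 0 of 38 genes and 0.0% of all genes were called, with 5 of the 38 at an unadjusted p under 0.05. Hspa1a had the largest difference at -0.46 (SE 0.18, adjusted p = 0.336), Cryab was at -0.33 (SE 0.11, adjusted p = 0.2492) and Pdia4 at -0.29 (SE 0.13, adjusted p = 0.3796). Hspa1a read 7.39, 7.65, 7.35, 8.46 and 7.55 in Tat+/Meth and 8.18, 8.14, 7.90, 8.37 and 8.11 in Tat+/Sal. Replicate 4 lay above all Tat+/Sal arrays and the other 4 below them. On slide 3, with replicates 4 and 5 of Tat+/Meth, the difference was -0.13 (adjusted p = 0.9998). Hspa9 was lower in all 5 Tat+/Meth arrays (13.27 to 13.38) than in any Tat+/Sal array (13.49 to 13.60), by 0.21 (SE 0.06, adjusted p = 0.2194). Hspa8 (0.00), Dnajb1 (-0.08), Hspa5 (-0.06), Ddit3 (-0.15), Xbp1 (0.05) and Atf4 (0.07) did not pass.

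In Tat+/Meth vs. Tat-/Sal, the contrast of both against neither, 0 of 38 genes and 0.0% of all genes were called, with 5 of the 38 at an unadjusted p under 0.05. Hspa1a was again the largest at -0.53 (SE 0.18, adjusted p = 0.6397), and -0.74 within slide 2 (adjusted p = 0.5853). Hspb1 was at -0.35 (SE 0.11, adjusted p = 0.6397), the same within slide 2, and Dnajb1 at -0.29 (SE 0.10, adjusted p = 0.6397). The lowest adjusted p of the 38 genes was 0.6397. Hspa8 (0.07), Hspa5 (-0.14), Ddit3 (-0.09), Xbp1 (-0.16) and Atf4 (-0.14) did not pass. Ranked by mean level, Hspa1a stood at 8.21 ± 0.30 (SD, n = 5) for Tat-/Sal, 8.14 ± 0.17 for Tat+/Sal, 7.99 ± 0.23 for Tat-/Meth and 7.68 ± 0.45 for Tat+/Meth, and neighbours in this order did not differ beyond their spread.

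On some arrays many of the 38 genes were the lowest or the highest of their group together. The arrays with the largest shares are given first, and the genes were not matched to all genes by signal. Replicate 3 of Tat-/Sal was the lowest of its 5 arrays for 21 of the 38 genes (55.26%), beside 21.37% of all genes, and replicate 1 of Tat+/Meth was the lowest for 22 (57.89%), beside 20.02%. In Tat-/Meth, replicate 4 was the highest for 18 of the 38 (47.37%), beside 17.48% of all genes, and replicate 5 the lowest for 18 (47.37%), beside 30.28%. The shares were smaller in Tat+/Sal. There replicate 1 was the lowest for 31.58%, beside 17.44% of all genes, and replicate 4 for 28.95%, beside 33.21%. Hspa5 in Tat-/Sal replicate 3 read 15.16 against 15.54 to 15.67 in the other 4, Dnajb1 14.50 against 14.88 to 14.98 and Pdia6 14.83 against 15.12 to 15.21. Genes of the cytosol and of the endoplasmic reticulum were thus low on the same array. The genes are not independent of each other, and depth of signal and RNA quality of single arrays were not tested for their part in this.

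**Figure D4:**
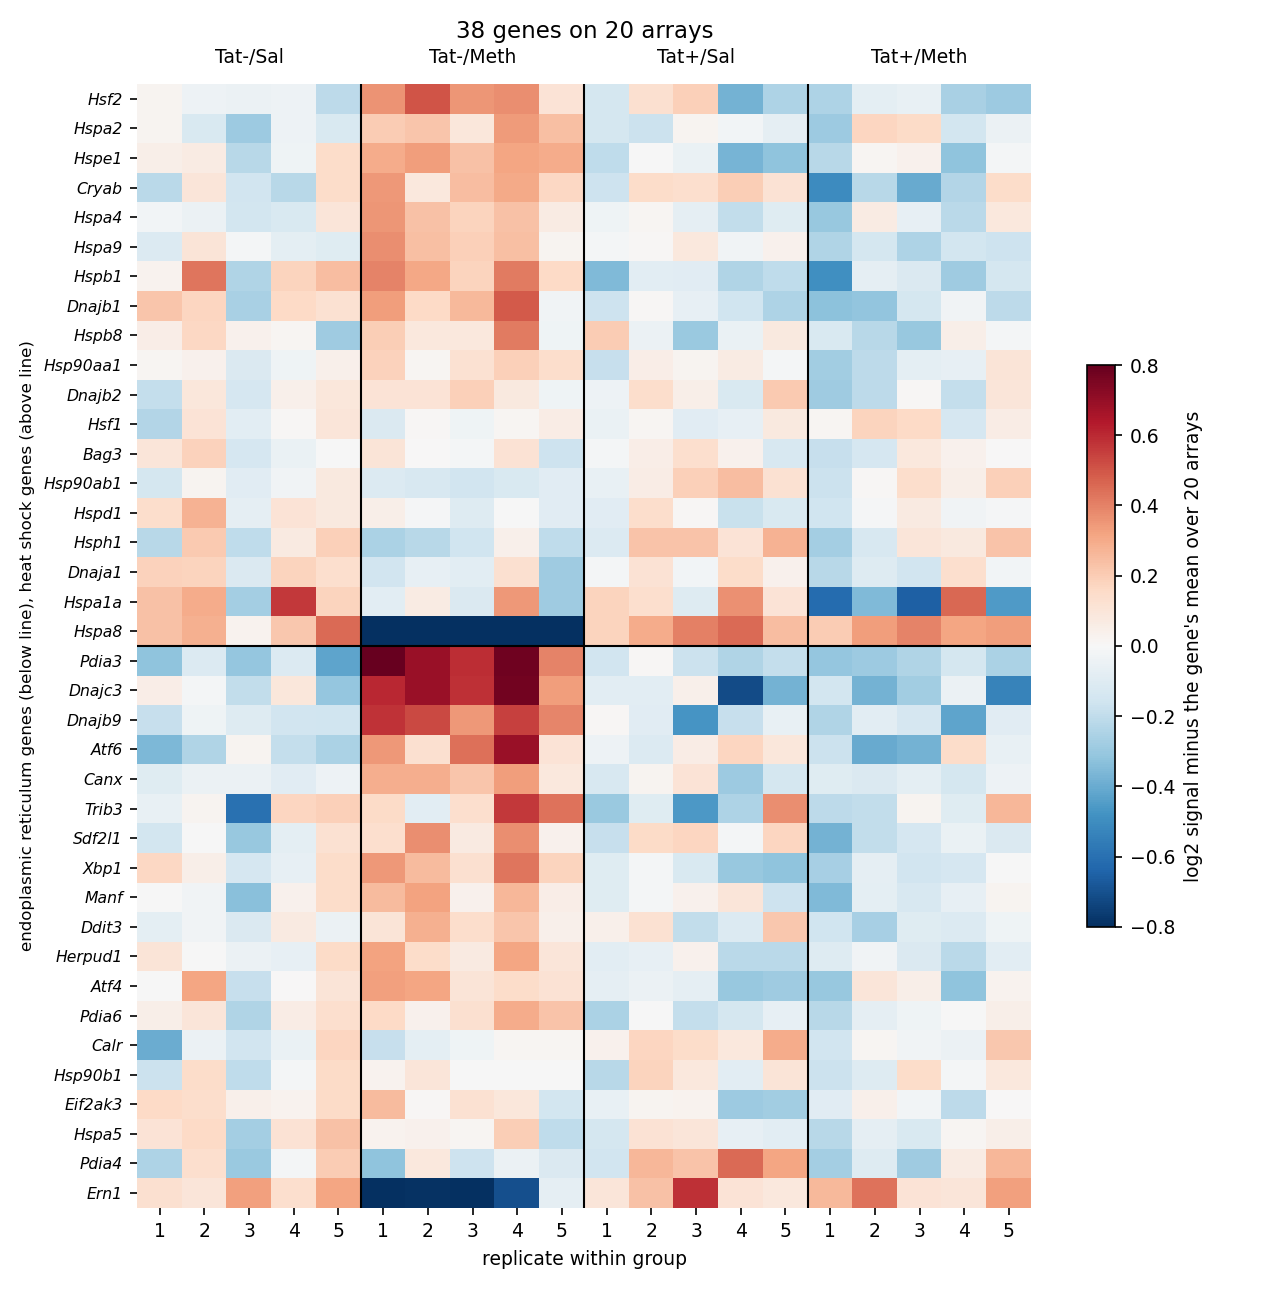
Log2 signal of 38 genes (rows, ordered by log2 fold change in Tat-/Meth vs. Tat-/Sal within each part) on 20 arrays (columns), as the difference from the gene's mean over all arrays; colours end at 0.8 in either direction. The Tat-/Meth columns stand out in Pdia3, Dnajc3, Dnajb9, Hspa8 and Ern1, and the columns of Tat-/Sal replicate 3 and Tat+/Meth replicate 1 are pale to blue over most rows, the lowest of their group for 21 and 22 of 38 genes.

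Other genes of the same pathways were counted in 4 lists, beside 35% of all genes higher and 15.3% lower in Tat-/Meth vs. Tat-/Sal. In Tat-/Meth vs. Tat-/Sal, 15 of 37 other heat shock proteins and co-chaperones were higher and 3 lower, with a median of 0.11. Hsf4, a heat shock factor of the lens, rose by 0.90 (SE 0.13), Bag2, an inhibitor of the Hsp70 ligase CHIP, by 0.60 (SE 0.12) and Stip1 (HOP), which links Hsp70 to Hsp90, by 0.42 (SE 0.08). Dnajc5, the cysteine string protein that works with Hspa8 at the synapse, fell by 1.11 (SE 0.09, adjusted p = 7.091e-09), from 17.00 ± 0.10 to 15.89 ± 0.08 on a bright probe. Hspa12a fell by 0.93 (SE 0.08). Hspa1l was called lower by 0.89 (SE 0.31, adjusted p = 0.02501 by limma), but at 5.10 ± 0.94 against 5.99 ± 0.15 it lay under the limit for testing. Only its mean in Tat+/Meth, 6.01, reached that limit. Its groups overlapped, with 1 Tat-/Meth array above all Tat-/Sal arrays and 4 below. Of the 14 subunits of the cytosolic chaperonin and prefoldin, 6 were higher, led by Vbp1 (0.61), Pfdn1 (0.54) and Cct6a (0.39), and 1, Pfdn4, was lower (-0.26). Without scaling these lists had 1 and 0 genes higher and 21 and 6 lower, where the median of all genes was -0.29 and the shares above do not apply.

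Of 23 other signalling genes of the unfolded protein response, 7 were higher and 3 lower. Atf3, a stress-induced transcription factor downstream of Atf4, read 9.02 ± 0.40 (SD, n = 5) in Tat-/Meth, 9.26 ± 0.44 in Tat+/Meth, 8.04 ± 0.58 in Tat-/Sal and 8.13 ± 0.44 in Tat+/Sal. It rose by 0.99 (SE 0.28, adjusted p = 0.006788) in Tat-/Meth vs. Tat-/Sal, and did not pass in Tat+/Meth vs. Tat+/Sal or in Tat+/Meth vs. Tat-/Sal, which do not use slide 1. Crebrf (0.51) and Cebpb (0.50) were the next, and Creb3l1, a membrane-bound factor related to Atf6, fell by 1.64 (SE 0.25), Sesn2 by 1.0 (SE 0.07) and Asns by 0.22 (SE 0.08). Of 38 other folding and degradation genes of the endoplasmic reticulum, 15 were higher, led by Txndc5 (0.48), Txndc12 (0.48) and Edem2 (0.43), and 4 lower, led by Ubxn4 (-1.84, SE 0.18), Edem3 (-0.49) and Ganab (-0.43). Without scaling, where the median of all genes was -0.29, 0 genes of these lists were higher, and 11 and 19 were lower. In Tat+/Meth vs. Tat-/Meth, where 38.5% of all genes were lower, 54.05% of the other heat shock genes and 57.14% of the chaperonin and prefoldin subunits were. The other signalling genes had 34.78% lower and the other folding and degradation genes 36.84%. In the interaction, the 4 lists in this order had 40.54%, 35.71%, 21.74% and 34.21% lower, beside 23.6% of all genes. Without scaling, Tat+/Meth vs. Tat-/Meth gave 0, 1, 0 and 0 genes lower and 10, 4, 8 and 18 higher. The interaction without scaling gave 0 lower in each list and 11, 3, 7 and 19 higher. The median of all genes was then 0.19 in Tat+/Meth vs. Tat-/Meth and 0.35 in the interaction, and the shares of all genes above belong to the scaled arrays. In the comparisons without slide 1, limma called 1 gene of the 4 lists, Stub1 (CHIP), higher by 0.28 (SE 0.07, adjusted p = 0.04203) in Tat+/Sal vs. Tat-/Sal.

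Cell type markers were counted beside the same shares of all genes, 35% higher and 15.3% lower. Of 7 astrocyte markers 4 were higher than in Tat-/Sal, with a summed level of 16.61 to 16.87 against 16.38 to 16.56, and of 7 oligodendrocyte markers 3 were higher, at 18.10 to 18.44 against 17.90 to 18.29, ranges that overlap. Of 6 microglial markers 2 were lower, with a summed level of 16.74 to 16.89 against 17.38 to 17.76. The brightest of them, Itgam, weighs most in that sum, with a mean of 16.06 against 17.13, while Cx3cr1 was at 13.22 against 13.02. The part of these cell types in the differences above was not tested, and in these bulk samples fewer cells of a type and less RNA per cell cannot be told apart.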

How the data were processed

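Whole-genome expression was measured on 20 Agilent 1-colour arrays. The deposited values were scanner intensities (processed signal), which the authors made with Feature Extraction 10.7.3.1 per the submitters' processing notes, with background subtracted. The authors' own table of background-subtracted signals of the same arrays was used only as an alternative. Its 7831 values under 1 were set to 1 before log2 was taken. The methods and the labels disagree on dye (Cy5 or Cy3), tissue, age and time. From the signals, outlier spots (4278) were left out, signals were divided by the 75th percentile of the array and log2 was taken. A gene was represented by its brightest probe and tested where a group mean reached 6 log2 units. All 4 groups entered 1 limma 3.58.1 fit (R 4.3.3, lmFit, contrasts, eBayes), with Benjamini-Hochberg adjustment over 15102 genes, and the code was tested on simulated data. Genes named with full statistics were, per comparison and direction, the 6 with the largest change among those called (the 3 largest where fewer than 3 were called) and the usual readouts of both responses. The members and lists were chosen with earlier results of these data known. Precision is limited by 5 mice a group, and p-values measure the spread between these samples. Alternatives were other scalings, filters, probe rules, slide and replicate blocks, the methods' t-test and leaving out each array.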

Additional observations from a re-analysis of the deposited data

Results flagged for a closer look

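Single arrays stood apart from the other 4 of their group by Dixon's test in 7 of 152 sets of a gene and a group, and chance gives about 1 in 20. In Tat-/Sal replicate 3, Dnaja1 was at 15.10 (others 15.35 to 15.40), Dnajb1 at 14.50 (14.88 to 14.98), Hspa5 at 15.16 (15.54 to 15.67) and Pdia6 at 14.83 (15.12 to 15.21). Hspa1a was at 8.46 in Tat+/Meth replicate 4 (others 7.35 to 7.65), Cryab at 14.31 in Tat+/Sal replicate 1 (14.59 to 14.67) and Ern1 at 7.65 in Tat-/Meth replicate 5 (6.76 to 7.02).

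On the scaled arrays, the interaction term of the limma fit, which compares the difference between Meth and saline with and without Tat, was called for 12 genes. It was 1.12 for Hspa8 and 0.90 for Ern1. It was -1.0 for Pdia3, -0.76 for Atf6, -0.70 for Dnajc3, -0.64 for Dnajb9, -0.63 for Cryab, -0.51 for Sdf2l1, -0.50 for Hsf2, -0.46 for Hspa9, -0.35 for Ddit3 and -0.31 for Canx. Without scaling, only Hspa8, Ern1 and Pdia3 of the 12 passed. Hsf2 was then at -0.01, and Hspa9 (0.03), Ddit3 (0.14) and Canx (0.17) were above 0. The interaction uses the arrays of slide 1, which cannot be told apart from Meth without Tat.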

How the results depend on the processing

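The scaling of the arrays, the threshold, the probe rule and the slide block moved counts. In Tat-/Meth vs. Tat-/Sal (15 higher, 3 lower), 5 genes were higher with scaling to the median, and 1 was higher and 18 lower without scaling. In Tat+/Meth vs. Tat-/Meth (3 higher, 23 lower), 14 were lower with scaling to the median, and 11 were higher and 2 lower without scaling. In the interaction (2 higher, 10 lower), 5 were lower with scaling to the median, and 12 were higher and 1 lower without scaling. The median of all genes moved too, to -0.29, 0.19 and 0.35 without scaling in these comparisons in turn, and the counts here have no share of all genes beside them. Without scaling, the sign turned for 11 of the 15 genes called higher in Tat-/Meth vs. Tat-/Sal, among them Hsf2 (-0.02), Hspa2 (-0.09), Ddit3 (-0.22) and Xbp1 (-0.19). It turned for 10 of the 23 called lower in Tat+/Meth vs. Tat-/Meth, among them Ddit3 (0.04) and Atf4 (0.04). In the interaction it turned for 3 of the 10 called lower, Hspa9 (0.03), Ddit3 (0.14) and Canx (0.17). Genes not called there turned too, among them Hspa5 (0.48), Atf4 (0.40), Xbp1 (0.30), Hspa1a (0.25) and Dnajb1 (0.25). Hsp90ab1 was -0.12 in Tat+/Meth vs. Tat-/Meth after quantile normalization. At an adjusted p of 0.01 and above 3-fold, 0 genes were called in these 3 comparisons in either direction. With the brightest probe under 16 log2 units, a choice made after seeing the data, Hspa8 was -0.21 in Tat+/Meth vs. Tat-/Meth and -0.10 in the interaction, and 1 gene was higher in each. A value that passed under neither setting was not called, though its sign is given, and for Hspa9 and Eif2ak3 also the order of the arrays.

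In Tat+/Sal vs. Tat-/Sal (0 called), slide as a random block gave 4 higher and 3 lower, and the methods' t-test without adjustment 2 higher and 3 lower. That t-test gave 3 lower in Tat+/Meth vs. Tat+/Sal and 5 lower in Tat+/Meth vs. Tat-/Sal. The counts of the random block and of this t-test have no share of all genes beside them. Leaving out 1 array gave 10 to 16 higher and 2 to 4 lower in Tat-/Meth vs. Tat-/Sal, 2 to 3 higher and 19 to 23 lower in Tat+/Meth vs. Tat-/Meth, 10 to 14 lower in the interaction, and 0 to 1 lower in Tat+/Sal vs. Tat-/Sal (Hspb1, without Tat-/Sal replicate 3). The replicate numbers did not pair the samples, with correlations from -0.176 to 0.358 and 8 of 30 pairs over 0.1, and the fit with the replicate block gave 15 higher and 3 lower, 3 higher and 24 lower, and 1 higher and 0 lower in the first 3 comparisons and 2 higher and 10 lower in the interaction. Of the other alternatives, the cause of each shift was not tested. A fixed slide block could not be fitted for Tat-/Meth, the only group on slide 1, and dim and very bright probes limit what Ern1 and Hspa8 can show.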
